A study of Mus musculus with 4 samples.

Results

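Some genes of the retina are spliced in photoreceptors into forms that carry exons other cells leave out. 6 such genes were examined here in mouse retina: Ttc8, Arl6, Reep6, Impdh1, Rpgr and Prom1. They were listed because retina or photoreceptor splice forms of them have been published, though with earlier results of these data known. All 6 were found among the 13452 Ensembl genes of the isoform table, with 27 of its 44325 isoforms and 127755 counts. Of the 27 isoforms, 24 had a transcript model with exon positions, and exon inclusion was computed from these.

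The data were long nanopore reads of single-cell cDNA from the retina of male wild-type mice of the inbred strain C57BL6/J, with no treatment other than the sorting of cells. 4 libraries were made: 2 without enrichment, of which 1 came from postnatal day 40 and the age of the other was not given, 1 labelled CD73 enrichment from postnatal week 8, and 1 labelled CD90.2 enrichment from postnatal month 4. CD73 marks photoreceptors and CD90.2 marks neurons of the inner retina. The protocol describes a magnetic separation that depletes CD73-positive cells and keeps CD90.2-positive cells, whereas the design text names fluorescence sorting.

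Counts were given for 6 cell classes: rods, cones, bipolar cells, amacrine cells, Müller glia and retinal ganglion cells. The columns name no library, so a class is 1 pooled sample without replicates, class and library cannot be told apart, and no test between classes was made. Intervals are exact 95% intervals that cover counting error only. The 2 photoreceptor columns held 55437340 counts for rods and 7307134 for cones. The inner retina held 29010038 for bipolar cells, 48248340 for amacrine cells, 3509890 for ganglion cells and 6133094 for Müller glia. Levels are counts per 1000000 of the column total (CPM). A count of 0 allows up to 0.0541 CPM in rods and up to 0.855 CPM in ganglion cells. The 5 rod markers used (among them Gnat1 and Pde6b) and all 6 markers of each other class were highest in their own column. The summed level of the rod markers, relative to rods, was 3.90% in Müller glia, 4.21% in cones, 1.77% in bipolar cells and 0.697% in amacrine cells, with 0 counts in ganglion cells. Single rod markers ranged from 0.984% to 7.86% in Müller glia, from 0.371% to 0.969% in amacrine cells and from 1.54% to 2.04% in bipolar cells, so the value for Müller glia depends most on the markers summed. The Müller glia column also held markers of the pigment epithelium at 8451 CPM and of microglia at 703 CPM. The part of such RNA in the results was not tested except where a value is given.

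Photoreceptors carry their light-sensing discs in an outer segment, which is a modified cilium joined to the cell body by a thin connecting cilium. Membrane proteins made in the cell body must pass this bridge, and several of these 6 genes act on that route. Ttc8 and Arl6 belong to the machinery of the BBSome, a coat complex that moves membrane proteins in cilia. Reep6 acts on membranes of the endoplasmic reticulum and on vesicle traffic in rods, Impdh1 makes guanine nucleotides, Rpgr sits at the connecting cilium, and Prom1 lies in the disc membrane. Mutations of the human counterparts of all of these genes cause inherited degeneration of the retina.

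**Figure D1:**
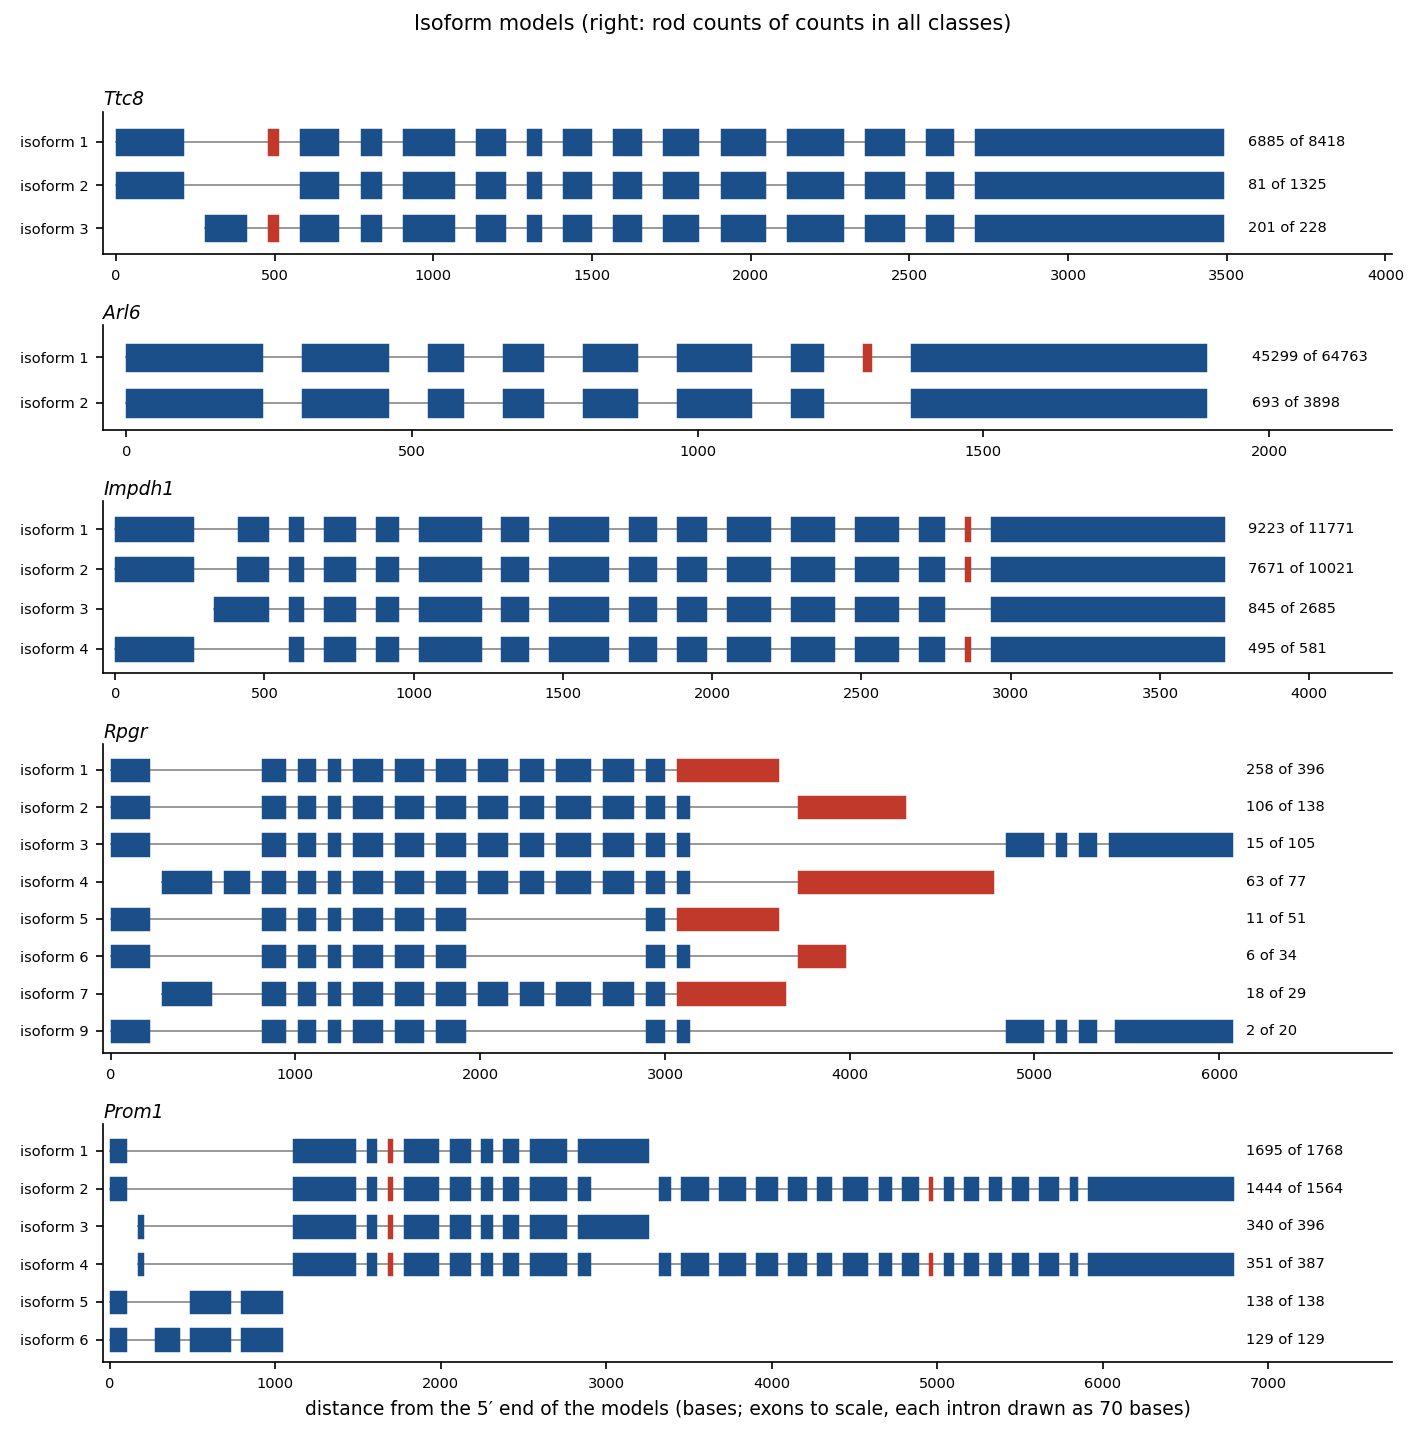
Isoform models of 5 genes, drawn from the 5′ end on an axis in bases, with exons to scale and every intron between exon blocks shortened to the same width. Red marks the exons and ends described in the text, and the numbers on the right give rod counts of the counts in all classes. The second isoform of Ttc8, which lacks the red exon, held 81 rod counts of 1325.

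Ttc8, also called Bbs8, encodes a subunit of the BBSome. Its 3 isoforms differed at 2 places, the start and a short exon known as exon 2A. This exon has 30 bases, which is a whole number of codons, at chr12:98937120-98937149 of GRCm38, plus strand. It lies inside the coding sequence, which has 1545 bases with it and 1515 without it in the GENCODE M21 annotation. It is shown because it had the largest difference of the 6 genes between rods and amacrine cells; capitals mark the exon and small letters the neighbouring exons in the spliced transcript.
Ttc8 exon 2A: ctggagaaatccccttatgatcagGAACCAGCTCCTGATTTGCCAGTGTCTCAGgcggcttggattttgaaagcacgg

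Rods and cones used the exon in nearly all Ttc8 transcripts, and the other classes mostly skipped it. In rods 7086 of 7167 counts held it, an inclusion of 98.9% (98.6 to 99.1). In cones 988 of 1014 did (97.4%), in bipolar cells 456 of 1166 (39.1%, 36.3 to 42.0), in Müller glia 85 of 271 (31.4%, 25.9 to 37.3) and in amacrine cells 31 of 351 (8.83%, 6.08 to 12.3). Ganglion cells had 2 Ttc8 counts, both without the exon, which is too few to place them. The order was therefore rods, cones, bipolar cells with Müller glia, and amacrine cells; the intervals of bipolar cells and Müller glia overlapped and those of the other neighbours did not.

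Seen as levels, the 2 forms ran in opposite directions between photoreceptors and the bipolar, Müller glia and amacrine columns. The form with exon 2A stood at 128 CPM in rods and 135 CPM in cones, against 15.7 CPM in bipolar cells, 13.9 CPM in Müller glia and 0.643 CPM in amacrine cells. The form without it stood at 1.46 CPM in rods and 3.56 CPM in cones, against 24.5 CPM in bipolar cells, 30.3 CPM in Müller glia and 6.63 CPM in amacrine cells. Bipolar cells, Müller glia and amacrine cells thus had more of the skipping form than photoreceptors, as well as less of the including form. Amacrine cells were below bipolar cells and Müller glia in both forms. The 2 ganglion cell counts put the skipping form at 0.570 CPM there, below rods. Relative to rods, the including form was at 12.3% in bipolar cells, where the rod markers were at 1.77%. In Müller glia it was at 10.8% beside rod markers at 3.90%. In amacrine cells it was at 0.503%, inside the range of single rod markers. Taking off the rod level of each form at the rod-marker share, a calculation added after the values were seen, left an inclusion of 35.5% in bipolar cells, 22.7% in Müller glia and 0% in amacrine cells.

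The third isoform of Ttc8 began at a first exon of its own further downstream and also held exon 2A. It had 201 counts in rods (2.80% of Ttc8) and 26 in cones (2.56%), 1 in bipolar cells and 0 in the other 3 classes. Amacrine cells had 351 Ttc8 counts in all, which allows a share of up to 1.05% there.

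Arl6, also called Bbs3, encodes a small GTPase that brings the BBSome to membranes. Its long form, known as BBS3L, has an extra exon of 13 bases near the 3′ end, at chr16:59618666-59618678, minus strand. The exon is not a whole number of codons, so it changes the frame in which the last exon is read: 31 coding bases of the last exon are used with it and 23 without it, and the whole coding sequence has 579 and 558 bases. Both forms are printed to show the change at the junction. Capitals mark the extra exon in the first line and the bases after the junction in the second.
Arl6 extra exon: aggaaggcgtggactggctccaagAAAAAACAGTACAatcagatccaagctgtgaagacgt
Arl6 without it: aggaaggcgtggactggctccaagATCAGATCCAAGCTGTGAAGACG

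The exon was nearly constant in rods, cones and bipolar cells and was skipped in part in the other 3 classes. Its inclusion was 98.5% in rods (45299 of 45992 counts), 98.9% in cones (9419 of 9525) and 98.2% in bipolar cells (4767 of 4853). It was 66.6% (65.5 to 67.7) in amacrine cells, 57.9% (54.0 to 61.6) in Müller glia and 26.3% (22.3 to 30.6) in ganglion cells. Bipolar cells thus sided with photoreceptors for Arl6 and apart from them for Ttc8. The intervals of rods (98.4 to 98.6) and bipolar cells (97.8 to 98.6) overlapped, and amacrine cells, Müller glia and ganglion cells stood apart from each other and from those 2.

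The form without the exon was at 49.5 CPM in amacrine cells, 46.8 CPM in Müller glia and 96.6 CPM in ganglion cells. It was at 12.5 CPM in rods, 14.5 CPM in cones and 2.96 CPM in bipolar cells. As a share of Arl6 it was 1.77% in bipolar cells, 1.51% in rods and 1.11% in cones. The form with the exon was at 817 CPM in rods and 1289 CPM in cones, 158% of the rod level. Relative to rods it was at 20.1% in bipolar cells and 12.1% in amacrine cells, where the rod markers were at 1.77% and 0.697%. In ganglion cells it was at 4.22%, where the rod markers had 0 counts. In Müller glia it was at 7.86% beside rod markers at 3.90%, at the upper end of the range of single rod markers (0.984% to 7.86%). With the rod level taken off, the inclusion there was 41.1% in place of 57.9%. In amacrine cells the same step gave 65.3%.

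Reep6 encodes a protein of the endoplasmic reticulum membrane that rods need for survival. Its rod form, Reep6.1, has an exon 5 that the form of other tissues lacks. The exon has 81 bases at chr10:80334713-80334793, plus strand, and takes the coding sequence from 522 to 603 bases. Capitals mark it below.
Reep6 exon 5: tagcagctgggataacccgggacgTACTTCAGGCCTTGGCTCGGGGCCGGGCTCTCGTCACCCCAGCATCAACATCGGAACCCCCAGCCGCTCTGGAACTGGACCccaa

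The table lists 1 isoform of Reep6, with 6 exons, and it holds exon 5. All 18756 counts therefore included the exon in every class, in rods 17848 of 17848 and in amacrine cells 605 of 605. M21 has 3 transcripts that hold the exon and 3 that splice over it, but no listed isoform is of the second kind. Inclusion of exon 5 could not vary between classes in this table, and what varied was the level of the gene. Reep6 was at 322 CPM in rods, 17.2 CPM in cones, 12.5 CPM in amacrine cells, 5.87 CPM in Müller glia, 4.45 CPM in bipolar cells and 3.42 CPM in ganglion cells. Rods stood above all other classes, cones included, and the intervals of bipolar cells, Müller glia and ganglion cells overlapped. Relative to rods, Reep6 was at 5.36% in cones, where the rod markers were at 4.21%. It was at 1.38% in bipolar cells, below each single rod marker, and at 1.82% in Müller glia, inside their range. In amacrine cells it was at 3.89%, above the 0.697% of the rod markers.

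Impdh1 encodes inosine monophosphate dehydrogenase, the rate-limiting enzyme of guanine nucleotide synthesis, which photoreceptors use to make the cyclic nucleotide of light signalling. Its retinal forms differ from the form of other tissues by a short exon near the 3′ end. This exon has 17 bases at chr6:29201888-29201904, minus strand. It shifts the reading frame of the last exon, of which 98 bases are coding in the M21 transcript with the exon and 19 in the form without it. In the lines below, capitals mark the short exon and, in the form without it, the bases after the junction.
Impdh1 short exon: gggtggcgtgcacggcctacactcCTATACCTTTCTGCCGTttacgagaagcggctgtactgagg
Impdh1 without it: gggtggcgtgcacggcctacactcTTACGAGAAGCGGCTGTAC

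Counts in the photoreceptor, Müller glia and bipolar columns mostly held the short exon, those of amacrine cells mostly lacked it, and ganglion cells showed none. Inclusion was 95.4% in rods (17389 of 18234 counts), 92.0% in cones (2560 of 2783), 86.1% (79.8 to 91.0) in Müller glia and 76.3% (74.6 to 77.9) in bipolar cells. It was 19.9% (17.6 to 22.3) in amacrine cells. In ganglion cells it was 0 of 44 counts, with an upper bound of 8.04%. The intervals of cones (90.9 to 93.0) and Müller glia met at their ends, and those of the other neighbours did not overlap.

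The form with the short exon stood at 314 CPM in rods, 350 CPM in cones and 70.9 CPM in bipolar cells, and at 23.2 CPM in Müller glia and 4.68 CPM in amacrine cells. The form without it was spread more evenly, from 3.75 CPM in Müller glia and 12.5 CPM in ganglion cells to 30.5 CPM in cones. Relative to rods, the including form was at 22.6% in bipolar cells and 1.49% in amacrine cells, above the rod markers at 1.77% and 0.697%. In Müller glia it was at 7.38% beside rod markers at 3.90%, inside the range of single rod markers (0.984% to 7.86%). Only 165 Impdh1 counts were read there, so use of the exon by Müller glia themselves is not settled. With the rod level taken off, inclusion was 77.6% in Müller glia and 11.8% in amacrine cells.

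The 2 ends of Impdh1 went together in the listed isoforms. An upstream first exon of 260 bases (chr6:29216072-29216331) began 3 isoforms, and all of their counts held the short exon near the other end: 17389 of 17389 in rods, 2560 of 2560 in cones and 226 of 226 in amacrine cells. The 1 isoform that began at the downstream first exon lacked it, with 845 counts in rods and 910 in amacrine cells. The pairing of start and short exon is therefore fixed by the 4 listed isoforms, and the counts put no limit on forms with the other pairing. In this table the class differences in the short exon and in the first exon are the same values. M21 has only 1 transcript with the short exon, a partial one, and none with the introns of the 3 retinal isoforms.

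Within the retinal isoforms the second exon came in 2 lengths, 99 and 102 bases, from acceptor sites 3 bases apart, or was skipped. In rods the shorter one had 53.0% (52.3 to 53.8), the longer one 44.1% and skipping 2.85% (495 counts). In cones the shares were 54.8%, 42.9% and 2.30%. In bipolar cells the longer exon led, with 52.9% (50.7 to 55.1) against 46.3%, and skipping had 0.827% (17 of 2056 counts). The longer exon was thus used more in bipolar cells than in rods (43.4 to 44.9) or cones (at most 44.9) beyond counting error. Its 39.4% in Müller glia rested on 142 counts.

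**Figure D2:**
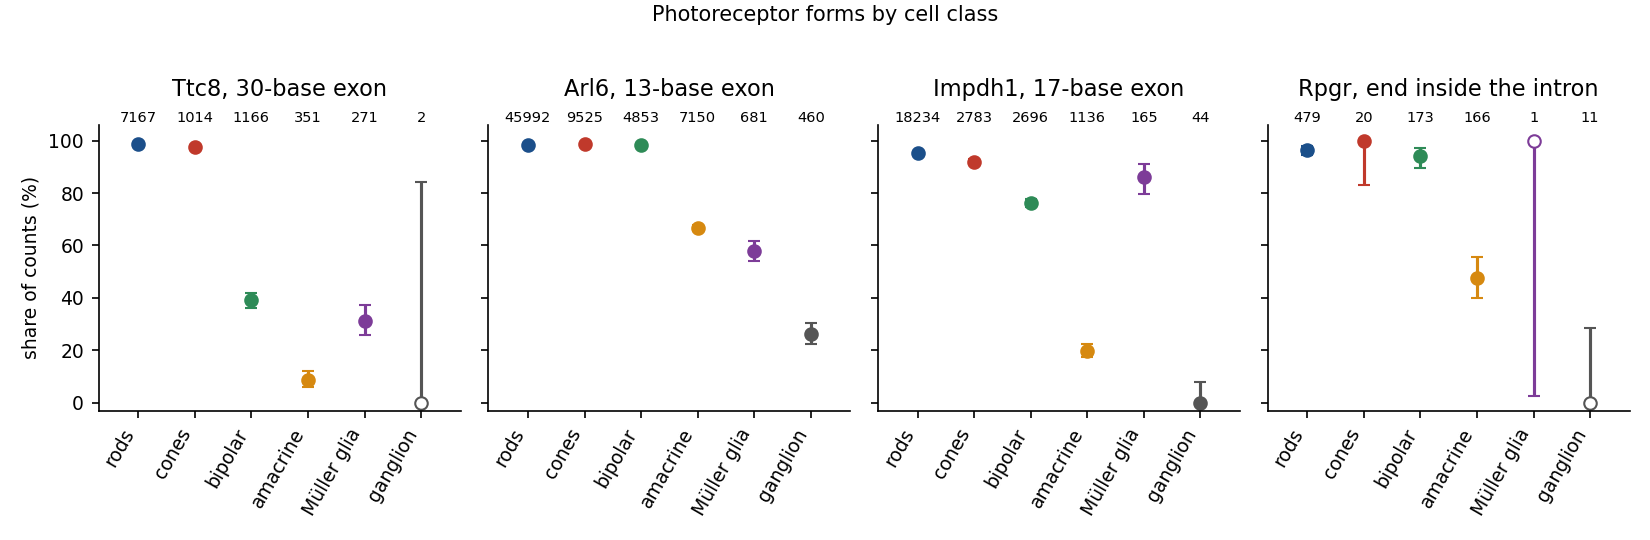
Share of counts in percent, by cell class, that hold the named exon of Ttc8, Arl6 or Impdh1, or that end inside the intron after the 66-base exon of Rpgr. Bars are exact 95% intervals for counting error, the numbers above are the counts in the denominator, and open points rest on fewer than 20 counts. Rods are above 95% in all 4 panels, and amacrine cells range from 8.83% for Ttc8 to 66.6% for Arl6.

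Rpgr encodes the retinitis pigmentosa GTPase regulator, a protein of the connecting cilium. Most tissues make a constitutive form, whereas photoreceptors make a form known as ORF15 that ends inside an intron, in a purine-rich stretch. M21 has an internal exon of 879 bases inside this intron in 2 transcripts, of which 67.7% are purines against 54.2% of the rest of the coding sequence. Both routes leave from an exon of 66 bases (chrX:10178271-10178336, minus strand). The lines below show the last 24 bases of this exon in small letters and the start of the exon that follows in capitals.
Rpgr to the exon inside the intron: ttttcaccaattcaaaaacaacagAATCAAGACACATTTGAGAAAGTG
Rpgr to the next constitutive exon: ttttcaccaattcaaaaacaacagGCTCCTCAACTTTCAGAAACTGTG

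Rpgr was shallow, with 893 counts, and 2 of its 10 isoforms (43 counts, 4.82%) had no model. Models exist only for isoforms with a rod count, so none of the loss could fall on rods. It fell mostly on amacrine cells, where 166 of 199 counts were modelled, so the amacrine shares below leave out the rest. In rods 462 of 479 modelled counts ended inside the intron (96.5%, 94.4 to 97.9), in cones 20 of 20, in bipolar cells 163 of 173 (94.2%, 89.6 to 97.2) and in amacrine cells 79 of 166 (47.6%, 39.8 to 55.5). All 11 counts of ganglion cells ended at the constitutive last exon, which allows up to 28.5% for the intronic end, and Müller glia had 1 modelled count. Rods, cones and bipolar cells overlapped, and amacrine cells were lower than all 3. The amacrine level of the intronic end, 1.64 CPM, was 19.6% of the rod level, beside rod markers at 0.697%.

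The intronic end was reached in 2 ways. In rods 287 counts (59.9%) read straight through the 66-base exon into the intron, for 478 or 519 bases, and 175 counts (36.5%) spliced to a last exon inside the intron. The latter began at 1 acceptor site and had 252, 576 or 1053 bases. The read-through stopped before the 879-base exon of M21, and its purine content was not measured. Whether the ends of these models are true transcript ends or reads cut short was not tested. Read-through also led in bipolar cells, with 115 against 48 counts, and in amacrine cells, with 61 against 18. The constitutive end made up 17 counts in rods (3.55%), 10 in bipolar cells (5.78%) and 87 in amacrine cells (52.4%). At this depth cones, with 20 modelled counts, gave 12 and 8 counts for the 2 ways.

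A block of 4 exons of Rpgr, of 156, 125, 183 and 166 bases, was skipped as a whole in 3 isoforms. Skipping was rare in rods, with 19 of 479 counts (3.97%, 2.40 to 6.13). It had 53 of 166 in amacrine cells (31.9%, 24.9 to 39.6), 25 of 173 in bipolar cells (14.5%, 9.58 to 20.6) and 8 of 20 in cones (40.0%, 19.1 to 63.9). This was the only place among the 6 genes at which cones and rods differed by at least 25 percentage points, and it rested on 20 cone counts. The junction over the block is not in M21. An exon of 135 bases near the start was used in 63 rod counts (13.2%), 12 bipolar counts (6.94%) and 2 amacrine counts (1.20%).

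Prom1 encodes prominin 1, a membrane protein needed to shape the discs of the outer segment. It has several short alternative exons, among them exons of 18, 24, 27 and 69 bases inside the coding sequence of M21. The 18-base exon (chr5:44012499-44012516) and the 27-base exon (chr5:44058626-44058652) are both on the minus strand. They are shown because every modelled isoform that spans them holds them although most annotated transcripts do not. Capitals mark the exons.
Prom1 18-base exon: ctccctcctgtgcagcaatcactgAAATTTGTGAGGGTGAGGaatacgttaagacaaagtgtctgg
Prom1 27-base exon: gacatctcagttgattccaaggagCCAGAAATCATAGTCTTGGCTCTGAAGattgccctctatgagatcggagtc

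For each of these short exons the modelled isoforms have only 1 choice, so the computed inclusion could not vary between classes, as for Reep6. The isoforms spanning the 18-base exon all hold it, with 1795 counts in rods and 108 in cones, while 2 M21 transcripts hold it and 8 skip it. Those spanning the 27-base exon all hold it, with 3830 counts in rods and 207 in cones, while 3 M21 transcripts hold it and 10 skip it. The 24-base and 69-base exons are in none of the modelled isoforms. The exons of the isoform without a model, which had 34 amacrine counts, are not known.

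The modelled Prom1 isoforms differed in where the transcript began and ended. A full-length form of 27 exons had 1795 counts in rods (43.8%, 42.3 to 45.3) and 108 in cones (52.2%, 45.1 to 59.1). A form of 10 exons that ended in an intron, with a last exon of 423 bases (chr5:44033999-44034421), had 2035 in rods (49.7%, 48.1 to 51.2) and 99 in cones (47.8%, 40.9 to 54.9). The intervals of rods and cones overlapped for both ends. The last exon of the 10-exon form begins as a 75-base exon of the full-length form does and runs on into the intron. Whether it is a true transcript end or comes from reads cut short was not tested. Short forms of 3 or 4 exons at the 5′ end, annotated in part as noncoding, had 267 in rods (6.52%) and 0 of 207 in cones, which allows up to 1.77%. Of the full-length and 10-exon forms, 82.0% (80.7 to 83.2) began at the upstream of 2 first exons in rods and 66.2% (59.3 to 72.6) in cones, intervals that do not overlap. The 34 amacrine counts of an isoform without a model, of 66 Prom1 counts there, are outside these shares.

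Gene levels were higher in photoreceptors for 5 of the 6 genes. A gene was called photoreceptor-high when the higher of rods and cones was at least 2-fold above the highest other class, with at least 20 counts in all. Ttc8, Arl6, Reep6, Impdh1 and Prom1 met this, beside 13.4% of all genes (1697 of 12645). The median fold was 5.95 over the 6 genes and 0.600 over all genes. Since fewer cells of a kind and less RNA in each cannot be told apart in a pooled column, levels are shares of the RNA of a class.

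Ttc8 was at 139 CPM in cones and 129 CPM in rods, at 44.2 CPM in Müller glia, 40.2 CPM in bipolar cells, 7.27 CPM in amacrine cells and 0.570 CPM in ganglion cells. Cones did not differ from rods beyond their intervals, nor Müller glia from bipolar cells. Arl6 was at 1304 CPM in cones, 830 CPM in rods, 167 CPM in bipolar cells, 148 CPM in amacrine cells, 131 CPM in ganglion cells and 111 CPM in Müller glia, and its fold over bipolar cells was 7.79. Only the last of these neighbours, ganglion cells and Müller glia, had intervals that met (119 to 144 and 103 to 120). Impdh1 was at 381 CPM in cones, 329 CPM in rods, 92.9 CPM in bipolar cells, 26.9 CPM in Müller glia, 23.5 CPM in amacrine cells and 12.5 CPM in ganglion cells. Müller glia and amacrine cells overlapped in Impdh1, and cones were above rods beyond counting error. Ttc8, Arl6 and Impdh1 thus had cones at or above rods, while Reep6, Rpgr and Prom1 had rods above cones.

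Prom1 was at 73.9 CPM in rods and 28.3 CPM in cones, and at 1.79, 1.37 and 1.21 CPM in Müller glia, amacrine and bipolar cells, with 0 counts in ganglion cells. The 3 low classes overlapped. Relative to rods, Prom1 was at 1.63% in bipolar cells (35 counts) and 2.43% in Müller glia (11 counts), inside the range of single rod markers in both. In amacrine cells it was at 1.85%, above the 0.697% of the rod markers there. Of its 66 amacrine counts, 34 belong to an isoform without a model and without rod counts, and the other 32 stood at 0.663 CPM. Rpgr was the exception among the 6 genes. It was at 8.64 CPM in rods, 6.20 CPM in bipolar cells, 4.12 CPM in amacrine cells, 3.13 CPM in ganglion cells, 3.01 CPM in cones and 0.326 CPM in Müller glia (2 counts), and rods were 1.39-fold above bipolar cells. The intervals of amacrine cells, ganglion cells and cones overlapped. For Rpgr the end of the transcript separated amacrine cells from rods, while the level of the gene put cones below bipolar cells.

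**Figure D3:**
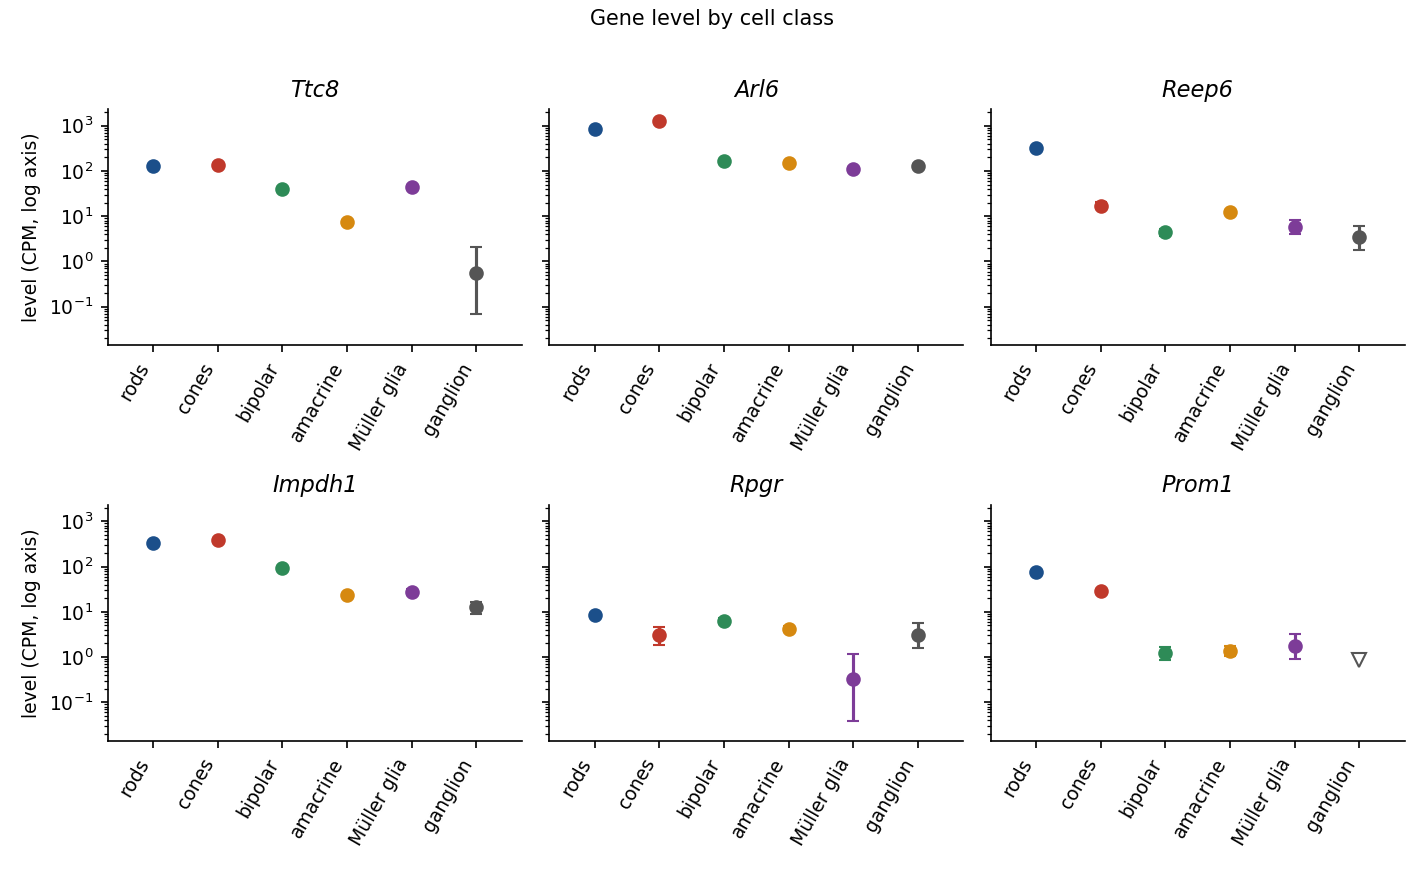
Level of each gene in CPM on a log axis, by cell class, with exact 95% intervals for counting error. The open triangle is the limit that a count of 0 allows. Reep6 falls from 322 in rods to 17.2 in cones, whereas Rpgr spans the narrowest range among the 5 classes other than Müller glia.

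Beside the rod markers, the photoreceptor forms differed in bipolar cells. The including forms of Ttc8, Arl6 and Impdh1 stood at 12.3% to 22.6% of the rod level there, and Rpgr with an intronic end at 67.4%, while the rod markers stood at 1.77%. Reep6 and Prom1 stood at 1.38% and 1.63%. In Müller glia all 6 values lay between 1.82% and 10.8%, beside rod markers at 3.90%.

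**Figure D4:**
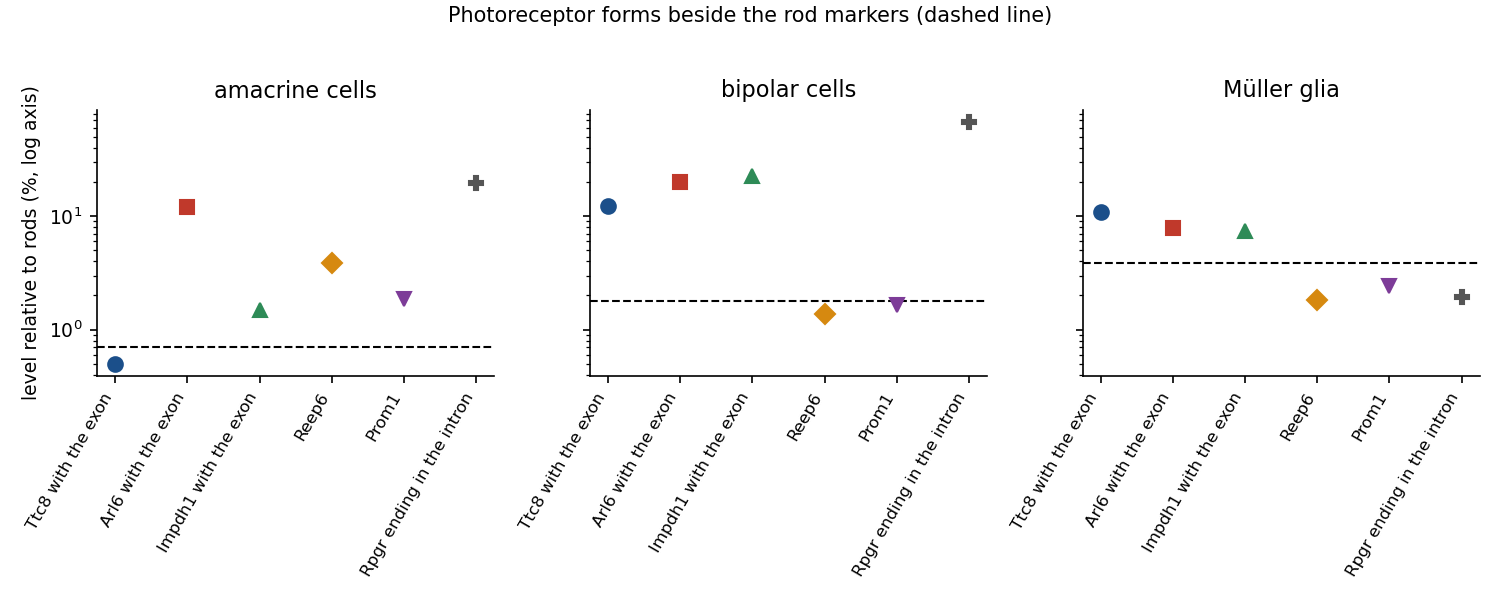
Level of 6 photoreceptor forms or genes in amacrine cells, bipolar cells and Müller glia, as a percentage of the level in rods on a log axis. The dashed line is the same percentage for 5 rod markers, at 0.697%, 1.77% and 3.90%; in bipolar cells 4 points lie well above it and Reep6 and Prom1 lie close to it.

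The exons of these genes were set against all alternative internal exons, of which the models hold 14504 in 4868 genes. An exon was called higher in rods when inclusion was at least 25 percentage points above that of the other class, with at least 20 spanning counts in both. Against amacrine cells 7 of 12 tested exons of the 6 genes were called, those of Ttc8, Arl6 and Impdh1 and the 4 of the Rpgr block, beside 10.4% of all exons tested. Against bipolar cells 1 of 12 was called, that of Ttc8, beside 5.44%. Against Müller glia 2 of 5 were called, in Ttc8 and Arl6, beside 4.99%. Against ganglion cells both tested exons, in Arl6 and Impdh1, were called, beside 10.9%. Against cones 4 of 12 were called, all of them the Rpgr block, beside 2.48%. This call rested on 20 cone counts, the minimum. It fell to 0 of 7 with at least 100 spanning counts, beside 0.703%. With a difference of at least 50 points it fell to 0 of 12, beside 0.130%. With isoforms of at least 50 counts it fell to 0 of 7, beside 2.62%. The 4 exons of the block sit in the same isoforms and count as 1 event. These exons come from genes picked for photoreceptor splicing, and all 5 comparisons share the rod column. Models exist only for isoforms with a rod count, so forms absent from rods enter none of these calls, for the 6 genes or for all.

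By size, the Ttc8 exon lay far out. It was 90.0 percentage points higher in rods than in amacrine cells, a difference that 12 of 8921 tested exons reached, itself included, and 59.8 points higher than in bipolar cells, which 63 of 9031 reached. The Impdh1 exon was 75.5 points higher than in amacrine cells (51 of 8921) and 95.4 points higher than in ganglion cells (7 of 3347). It was 19.1 points higher than in bipolar cells and 9.31 points higher than in Müller glia, both under the rule. The Arl6 exon was 31.9 points higher than in amacrine cells, which 678 of 8921 reached, 72.2 points higher than in ganglion cells (51 of 3347) and 0.265 points higher than in bipolar cells. The 3 short exons thus shared high use in rods and cones, while bipolar cells included them at 39.1% (Ttc8), 76.3% (Impdh1) and 98.2% (Arl6).

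**Figure D5:**
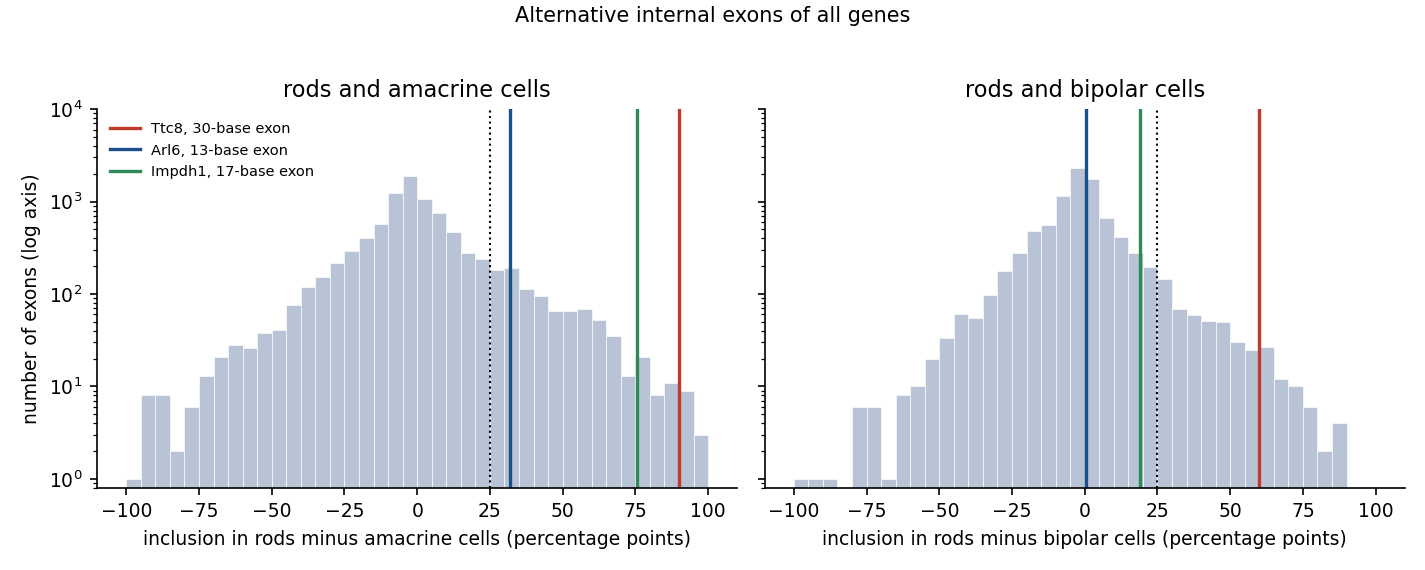
Number of alternative internal exons of all genes, on a log axis, by inclusion in rods minus inclusion in amacrine cells (left) or bipolar cells (right), in bins of 5 percentage points. Coloured lines are the exons of Ttc8, Arl6 and Impdh1 and the dotted line is the rule of 25 points; Ttc8 lies beyond it on both sides, at 90.0 and 59.8 points.

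The listed isoforms were also compared with the annotation. Some carry Ensembl names, so annotation entered the making of the models, and a match to it is no independent measure of its coverage. Of the 24 models, 9 had the introns of an M21 transcript, while 99 of their 101 distinct junctions (98.0%) were in M21. The 2 others were the junction over the Rpgr block and 1 in the short 5′ forms of Prom1, with 138 counts, all in rods. Most unannotated isoforms in this list joined annotated junctions to each other or to other ends.

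Genes that work with the 6 were read in the same way from lists drawn up with earlier results of these data known. Of 11 genes of the BBSome and its assembly and entry, 6 were photoreceptor-high, with a median fold of 2.30 over the 11, beside 13.4% and a median of 0.600 over all genes. They were Bbs9 at 17.9-fold, the chaperonin-like Bbs12 at 12.6-fold, Bbs5 at 9.72-fold, Bbs7 at 5.89-fold, Bbs2 at 2.63-fold and the BBSome regulator Lztfl1 at 2.30-fold. Of 6 tested partners of Rpgr at the connecting cilium, 2 were: Rpgrip1, which anchors Rpgr there, at 15.4-fold, and Pde6d, which carries lipid-modified proteins, at 3.08-fold. Their share, too, reads against 13.4% of all genes. Rpgrip1l had too few counts.

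Of 4 tested partners of prominin and of the disc rim all were photoreceptor-high, beside 13.4% of all genes: the cadherins Cdhr1 (10.0-fold) and Pcdh15 (7.08-fold) and the rim proteins Prph2 (8.89-fold) and Rom1 (8.57-fold). None of 5 genes of guanine nucleotide synthesis was, with Guk1 the highest at 1.83-fold, beside 4.10-fold for Impdh1. None of the 5 other members of the REEP family was either, with a median of 0.276-fold. Beside 13.4% of all genes, 0 of 5 is near the background in both lists. Reep5 was highest in Müller glia at 425 CPM and stood at 51.5 CPM in rods.

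Of 10 splicing regulators of neurons and photoreceptors, 2 were photoreceptor-high, a share near the 13.4% of all genes. Msi1, an RNA-binding protein known to promote photoreceptor exons, was at 28.3 CPM in rods, 16.4 CPM in cones, 3.23 CPM in amacrine cells, 1.48 CPM in bipolar cells, 1.14 CPM in Müller glia and 0.285 CPM in ganglion cells. Celf1 was at 57.6 CPM in rods and 27.5 CPM in cones, against 12.3 CPM in bipolar cells. The median fold of the 10 regulators was 0.920.

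The genes whose levels ran most like each member over the 6 classes were ranked by Pearson's r of log2(CPM + 1) among 9863 genes with at least 100 counts. With 6 points a high r is easily reached, so these are descriptions. They were Rbks for Ttc8 (0.997), Cutal for Arl6 (0.996), Cntln for Reep6 (0.997), Laptm4b for Impdh1 (0.998), Gapdh for Rpgr (0.995) and Nfic for Prom1 (0.998). Rpgrip1 was the third for Impdh1 (0.993).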

How the data were processed

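The authors deposited a table of whole-number counts per isoform in 6 cell-class columns and transcript models made with FLAIR, a long-read isoform caller, per the file contents. The build is mm10 per the submitters' processing notes (GRCm38). The use of molecular identifiers, the typing of cells and doublets, and the isoform filters are not given in the sources used here. Models exist for the 36426 isoforms with a rod count and not for the other 7899, so forms absent from rods enter no inclusion. 0 columns were left unused.

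Inclusion is the counts of isoforms holding an exon with both ends, over these plus the counts of isoforms splicing over it. Ensembl genes were matched to symbols through GENCODE M21, and sequences were read from its transcripts. The members, lists and rules were chosen with earlier results of these data known. Named were all 6 genes, their published photoreceptor exons, their alternative internal exons with at least 20 spanning counts, their main isoforms, the pathway lists and the most similar genes; 1 listed rod marker and 1 listed partner of Rpgr are not reported here. With 1 pooled sample a class the planned test over libraries (edgeR) was not made. Alternatives varied the isoforms, the overlap rule, the minimum counts, the size of difference and the scaling (edgeR 4.0.16, DESeq2 1.42.0). Python 3.11.15 with pandas 2.3.3 and scipy 1.17.1 was used. The exon rule was run on simulated data: of 2223 genes simulated for rods and amacrine cells, 200 of 200 changed ones and 0 of 2023 unchanged ones were called. Each of these genes had at least 100 spanning counts in both columns. The changes were set well above 25 percentage points, with counting error as the only noise. The outcome was thus nearly fixed in advance. How often the rule misses or wrongly calls exons near its limits of 20 spanning counts and 25 percentage points was not tested. Totals ran from 3509890 counts in ganglion cells to 55437340 in rods.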

Additional observations from a re-analysis of the deposited data

How the results depend on the processing

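Of 105 values recomputed under alternatives, 79 stayed and 26 moved. Inclusion differences and isoform shares had to stay within their counting interval, and counts of exons or genes within 1.5 times the reported count. Folds of the 6 genes had only to stay on the same side of the 2-fold rule. None of the inclusion differences changed sign, and counts and shares have no sign to change. With the rod level at the rod-marker share taken off, an alternative chosen after seeing the data, rods exceeded amacrine cells by 98.9 points for the Ttc8 exon, 33.2 for Arl6 and 83.6 for Impdh1. They exceeded Müller glia by 76.2, 57.4 and 17.8 points, and bipolar cells by 63.4 for Ttc8. The values for Müller glia are the least firm, since single rod markers there ranged from 0.984% to 7.86% of the rod level. Counts of exons called higher in rods fell by construction under stricter rules. With at least 100 spanning counts they were 16 for cones, 356 for amacrine cells, 136 for bipolar cells, 92 for Müller glia and 120 for ganglion cells. With at least 50 points they were 7, 285, 116, 88 and 133. With isoforms of at least 50 counts they were 503 for amacrine cells and 266 for bipolar cells. Among the 6 genes, the call against cones fell to 0 under each of these 3 rules, of 7, 12 and 7 tested exons. Against amacrine cells 2 of 12 exons remained at 50 points (Ttc8, Impdh1), beside 3.19% of all exons tested. With isoforms of at least 50 counts 3 of 12 remained there (Ttc8, Arl6, Impdh1), beside 11.4%. Against Müller glia 1 of 5 remained at 50 points (Ttc8), beside 1.84%. Against ganglion cells 1 of 1 remained with 100 counts (Arl6), beside 9.03%. Photoreceptor-high genes were 1664 with edgeR's trimmed mean of M-values, 1621 with DESeq2's median of ratios and 1862 without a minimum, 5 of the 6 genes each time.

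No paired analysis was possible because no column names a library, and leaving out a library could not be run for the same reason. No Ensembl-named isoform holds the Impdh1 short exon, so that alternative gave no value for it. Keeping isoforms with at least 50 counts and matching exons by any overlap did not change the inclusion values for Ttc8, Arl6 and Impdh1. Keeping only Ensembl-named isoforms did not change those of Arl6, whose 2 isoforms both carry such names. Summing isoforms with the same introns did not change the share of any of the 6 genes. All of these values are among the 79 that stayed. They could not move, and so say nothing of stability. Depth limits Rpgr in cones, ganglion cells and Müller glia and Ttc8 in ganglion cells.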
